A study of Mus musculus with 13 samples.

Results

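The heme synthesis genes described here are 10 genes that code for enzymes and carriers of the pathway, Alas1, Alas2, Slc25a38, Alad, Uros, Urod, Cpox, Tmem14c, Ppox and Fech. They were chosen by name, as the probe sets annotated to 1 of these genes only, and all 10 were found, each with 1 probe set, among 19938 genes measured. Bone marrow RNA of male C57BL/6 mice aged 6 weeks was hybridised to Affymetrix Mouse Gene 1.0 ST arrays, 13 samples in all with 1 array each. The mice of 5 groups were phlebotomised by taking 500 µL of blood from behind the eye (retro-orbital bleeding), and marrow came from 1 sample at 4 h after it, 3 samples at 9 h and 2 samples each at 12 h, 15 h and 48 h. The control group held 3 samples. No allele or transgene is named for any group. The labels do not say whether the samples of a group are separate animals, so every p-value reflects only how far these samples differ, and that difference could be technical.

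Heme is made in steps that begin and end in the mitochondrion. Glycine, carried in by SLC25A38, and succinyl-CoA are joined to 5-aminolevulinate by ALAS1 in most cells and by ALAS2 in erythroid cells. In the cytosol a chain of enzymes that includes ALAD, UROS and UROD turns this into coproporphyrinogen, which CPOX oxidises. TMEM14C helps bring the product across the inner mitochondrial membrane, where PPOX makes protoporphyrin and ferrochelatase (FECH) inserts iron. In marrow nearly all of this heme goes into the haemoglobin of erythroblasts, and blood loss raises erythropoietin, which expands these cells.

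The bases before the annotated start are shown for the synthase pair, whose levels parted at 48 h, and for Cpox, which was the member with the largest increase over controls at 9, 12 and 15 h. They are RefSeq sequences on GRCm38.p6, 250 bases each, read 5′ to 3′ on the strand of the gene. Capitals mark matches on either strand to the letters GATA with A or T before them and A or G after them, which GATA factors such as GATA1 can bind, or to TTCNNNGAA, which STAT factors can bind.
Alas1 (chr9:106247955-106248204, minus strand): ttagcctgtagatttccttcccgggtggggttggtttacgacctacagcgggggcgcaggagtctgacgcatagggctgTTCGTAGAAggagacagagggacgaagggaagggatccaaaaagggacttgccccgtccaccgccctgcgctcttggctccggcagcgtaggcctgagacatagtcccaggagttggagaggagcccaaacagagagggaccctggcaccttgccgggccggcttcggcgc
Alas2 (chrX:150547167-150547416, plus strand): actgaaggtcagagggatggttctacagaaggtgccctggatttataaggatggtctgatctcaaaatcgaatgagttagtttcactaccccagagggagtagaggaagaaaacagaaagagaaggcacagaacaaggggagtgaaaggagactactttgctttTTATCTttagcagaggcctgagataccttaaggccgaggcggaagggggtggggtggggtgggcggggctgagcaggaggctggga
Cpox (chr16:58669958-58670207, plus strand): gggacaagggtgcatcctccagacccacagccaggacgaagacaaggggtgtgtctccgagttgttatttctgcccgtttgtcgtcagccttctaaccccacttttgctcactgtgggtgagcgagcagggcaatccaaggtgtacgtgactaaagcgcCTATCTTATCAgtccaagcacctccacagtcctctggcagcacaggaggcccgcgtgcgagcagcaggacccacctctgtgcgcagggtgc
The Alas2 window held 1 GATA match, starting 86 bases before the annotated start. In Cpox 2 GATA matches overlapped, starting 91 and 86 bases before it. Alas1 has 2 annotated starts in RefSeq, and the window shown held no GATA match and 1 STAT match, starting 171 bases before its start, while the window of the other start held neither. The set of RefSeq windows used here held 12 full windows for 9 of the 10 genes and no usable window for Fech. A GATA match stood in 3 of the 12 windows (1 each of Alas2, Uros and Cpox), near the 26.5% of 32851 windows of all genes. A STAT match stood in 1 of the 12, and in 7.02% of all windows.

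By the numbering of their titles the samples form a larger run of 10 arrays and a smaller run of 3 arrays (control replicate 3 and 9 h replicates 1 and 2). Array medians lay at log2 6.98 to 7.03 in the larger run and at 7.77 to 7.80 in the smaller, so levels are compared only within a run. The level is the authors' RMA value on the log2 scale, in which 1 unit is a doubling. Changes come from 1 limma fit to all 13 arrays and 19938 genes with a term for the run. They are given as log2 change ± standard error, and the threshold is an adjusted p of 0.05 (Benjamini-Hochberg, over all genes). Defining genes of marrow lineages were present on the arrays: Elane, a neutrophil elastase, ranged from 13.03 to 13.30 in the larger run, Slc4a1, the red cell anion exchanger, from 12.96 to 13.50 and Cd79a, of the B-cell receptor, from 11.28 to 11.78. Some arrays also carried transcripts of other tissues, given with the results below.

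None of the 10 genes passed the threshold in any of the 8 comparisons. At 48 h, 9 of the 10 genes lay above both 12 h and 15 h, with no overlap between the arrays (15.4% of all genes), by log2 0.20 to 0.51 (1.15-fold to 1.43-fold), while Alas1 lay below them (12.0% of all genes). Before 48 h the changes against control lay between −0.37 and 0.31, and the controls of the larger run themselves differed by up to 0.51 for a single gene.

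**Figure D1:**
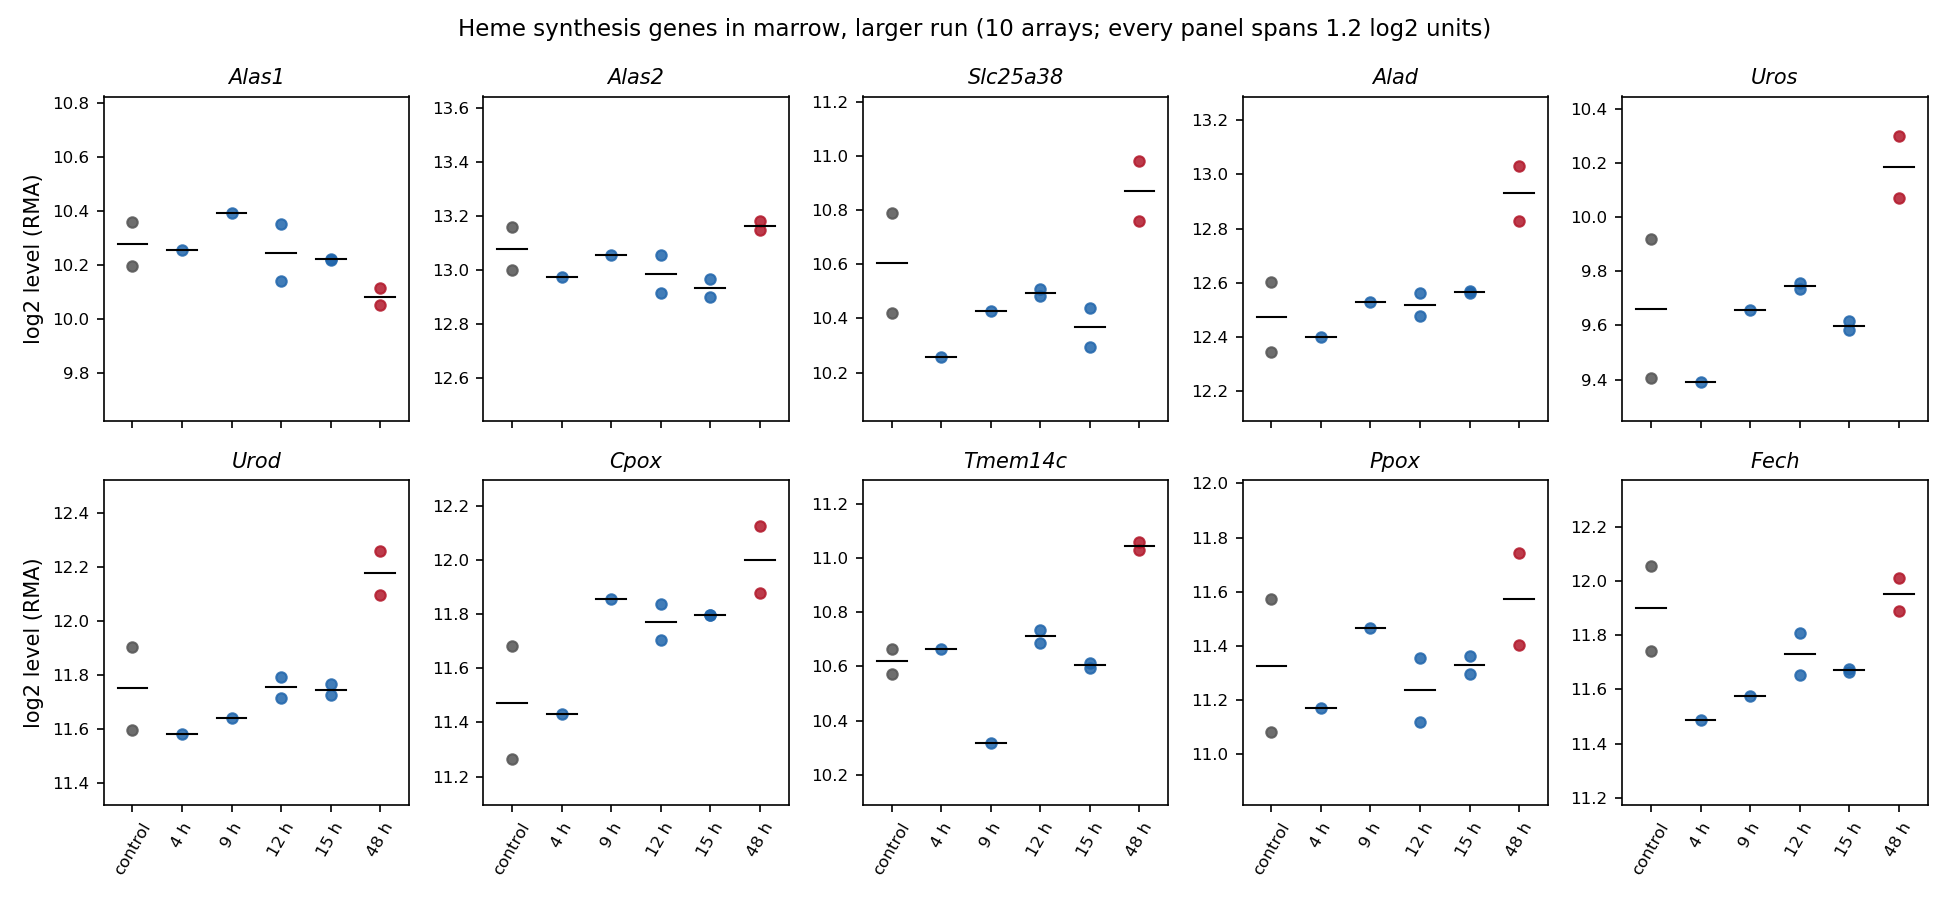
Log2 RMA level of each gene on the 10 arrays of the larger run. Each point is 1 array (grey for controls, blue for 4 to 15 h, red for 48 h), the bar is the group mean, and every panel spans the same range of log2 units. The 48 h arrays lie above all 12 h and 15 h arrays in 9 panels and below them for Alas1, as for 15.4% and 12.0% of all genes.

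The first step was measured by both synthase genes. For Alas2, whose product sets the pace of heme synthesis in erythroid cells, the larger run gave log2 levels of 12.9995 and 13.16 in controls, 12.98 at 4 h, 13.06 at 9 h, 12.91 and 13.05 at 12 h, 12.97 and 12.90 at 15 h, and 13.18 and 13.15 at 48 h. The 48 h arrays were above every other phlebotomised array of the run, as for 9.47% of all genes. The lower of them fell short of the second control. Alas2 had a mean level of 13.14 over all arrays, above that of 99.7% of genes, and how the array responds at such levels was not tested. Over the 10 arrays of the larger run it covered 0.28, the narrowest range among the 10 genes. Its change was −0.11 ± 0.10 at 4 h, −0.04 ± 0.07 at 9 h, −0.10 ± 0.08 at 12 h, −0.15 ± 0.08 at 15 h and 0.08 ± 0.08 at 48 h against control. At 48 h the 95% interval of that change was −0.10 to 0.25, which bounds a rise of the array value over control at 0.25. Against the mean of 12 and 15 h it was higher by 0.20 ± 0.07 (95% interval 0.05 to 0.36, adjusted p = 0.166).

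Alas1, the synthase of most other cells and one that heme itself represses in liver, ran the other way. Its levels were 10.20 and 10.36 in controls, 10.25 at 4 h, 10.39 at 9 h, 10.14 and 10.35 at 12 h, 10.22 on both 15 h arrays, and 10.05 and 10.11 at 48 h. Both 48 h arrays were the lowest of the run, and 2.42% of all genes had both 48 h arrays below every other array there. The change was −0.22 ± 0.10 against control (95% interval −0.44 to −0.01, adjusted p = 0.335) and −0.15 ± 0.09 against 12 and 15 h (95% interval −0.34 to 0.04, adjusted p = 0.382). At the earlier times it stayed between −0.09 ± 0.10 at 15 h and 0.03 ± 0.09 at 9 h.

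Slc25a38, the carrier that brings glycine to the synthase in the mitochondrion, had levels of 10.42 and 10.79 in controls, 10.26 at 4 h, 10.43 at 9 h, 10.51 and 10.48 at 12 h, 10.29 and 10.44 at 15 h, and 10.98 and 10.76 at 48 h. The 4 h array was the lowest, and the second control lay between the 48 h arrays. Between 48 h and the mean of 12 and 15 h the difference was 0.44 ± 0.10 or 1.36-fold (95% interval 0.21 to 0.67, adjusted p = 0.0743). Against control it was 0.27 ± 0.11 at 48 h (adjusted p = 0.327), −0.35 ± 0.14 at 4 h (adjusted p = 0.279), −0.18 ± 0.10 at 9 h, −0.11 ± 0.11 at 12 h and −0.24 ± 0.11 at 15 h.

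Among the cytosolic enzymes, Alad, which joins a pair of aminolevulinate molecules to porphobilinogen, had levels of 12.34 and 12.60 in controls, 12.40 at 4 h, 12.53 at 9 h, 12.48 and 12.56 at 12 h, 12.56 and 12.57 at 15 h, and 13.03 and 12.83 at 48 h. No array of another group in the larger run reached the 48 h arrays, as for 5.85% of all genes. The difference was 0.39 ± 0.09 against 12 and 15 h (adjusted p = 0.0684) and 0.44 ± 0.10 or 1.36-fold against control (95% interval 0.23 to 0.66, adjusted p = 0.0869). Up to 15 h the change against control stayed between −0.09 ± 0.12 at 4 h and 0.08 ± 0.10 at 15 h.

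Uros closes and inverts the tetrapyrrole ring to uroporphyrinogen III. Its levels were 9.40 and 9.92 in controls, 9.39 at 4 h, 9.66 at 9 h, 9.73 and 9.76 at 12 h, 9.58 and 9.61 at 15 h, and 10.30 and 10.07 at 48 h. With a range of 0.91 over the run it was the most variable of the 10 genes, and its controls were also the farthest apart, by 0.51. It had the largest difference at 48 h, 0.51 ± 0.12 or 1.43-fold against 12 and 15 h (95% interval 0.25 to 0.78, adjusted p = 0.0756) and 0.52 ± 0.13 against control (95% interval 0.22 to 0.82, adjusted p = 0.144). Against control it was −0.27 ± 0.17 at 4 h, −0.01 ± 0.12 at 9 h, 0.08 ± 0.13 at 12 h and −0.07 ± 0.13 at 15 h.

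Urod, which takes the acetate side chains of the ring down to methyl groups, had levels of 11.60 and 11.91 in controls, 11.58 at 4 h, 11.64 at 9 h, 11.72 and 11.79 at 12 h, 11.73 and 11.77 at 15 h, and 12.26 and 12.10 at 48 h. Its 48 h arrays were above all others of the run, as for 5.85% of all genes. The difference was nearly the same against both references, 0.43 ± 0.10 against 12 and 15 h (adjusted p = 0.0684) and 0.43 ± 0.11 against control (adjusted p = 0.131). At 12 and 15 h it was 0.00 ± 0.11 and −0.01 ± 0.11 against control, with 95% intervals of −0.23 to 0.24 and −0.24 to 0.23.

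Of the later steps, Cpox was the only one of the 10 genes with higher levels than the controls of its run on every array from 9 h on. CPOX makes protoporphyrinogen from coproporphyrinogen. In the larger run its levels were 11.26 and 11.68 in controls, 11.43 at 4 h, 11.86 at 9 h, 11.70 and 11.84 at 12 h, 11.80 on both 15 h arrays, and 12.12 and 11.88 at 48 h. In the smaller run they were 12.03 in the control and 12.22 and 12.32 at 9 h. The change against control was −0.07 ± 0.16 at 4 h, 0.31 ± 0.11 at 9 h (95% interval 0.06 to 0.56, adjusted p = 0.780), 0.27 ± 0.13 at 12 h (adjusted p = 0.374), 0.30 ± 0.13 at 15 h (adjusted p = 0.374) and 0.50 ± 0.13 at 48 h (adjusted p = 0.137). Against 12 and 15 h the 48 h difference was 0.22 ± 0.11 (adjusted p = 0.338), the second smallest of the 9 higher genes, after Alas2. At 9 h the groups did not overlap in either run for Cpox upward, as for 6.29% of all genes, and for Fech downward, as for 5.22%. In the smaller run a value is repeated between arrays for 75.6% of all genes and for 1 of the 10 members (Uros), and a tie counts as overlap, so these shares are not a like background for the other members. The smaller run also enters the shared estimate of spread, to which tied 9 h arrays add no difference. The shares of all genes passing the threshold, in every comparison, carry the same limit.

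Tmem14c, an inner mitochondrial membrane protein needed for porphyrin import in erythroid cells, had levels of 10.57 and 10.66 in controls, 10.67 at 4 h, 10.32 at 9 h, 10.73 and 10.69 at 12 h, 10.61 and 10.60 at 15 h, and 11.06 and 11.03 at 48 h. It had the smallest gap between the controls of the larger run, 0.09. In the smaller run the level was 11.58 in the control and 11.43 and 11.68 at 9 h. The 48 h difference was 0.39 ± 0.09 against 12 and 15 h (95% interval 0.19 to 0.58, adjusted p = 0.0708) and 0.47 ± 0.10 or 1.39-fold against control (95% interval 0.26 to 0.68, adjusted p = 0.0763), the lowest adjusted p of any member against control. At 9 h the larger run differed from its controls by −0.30, and the 2 arrays of the smaller run by −0.15 and 0.10, on opposite sides of their control.

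Ppox, the oxidase that makes protoporphyrin IX, had levels of 11.08 and 11.57 in controls, 11.17 at 4 h, 11.47 at 9 h, 11.12 and 11.36 at 12 h, 11.29 and 11.36 at 15 h, and 11.74 and 11.40 at 48 h. The controls lay 0.49 apart and the second of them was above 1 of the 48 h arrays. It had the widest standard errors of the 10 genes, 0.29 ± 0.14 at 48 h against 12 and 15 h (adjusted p = 0.293) and 0.21 ± 0.15 against control (95% interval −0.13 to 0.55, adjusted p = 0.580). From 4 to 15 h its change against control lay between −0.19 ± 0.19 and 0.03 ± 0.14.

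Fech inserts ferrous iron into protoporphyrin to give heme. Levels were 11.74 and 12.06 in controls, 11.49 at 4 h, 11.58 at 9 h, 11.65 and 11.81 at 12 h, 11.68 and 11.66 at 15 h, and 12.01 and 11.89 at 48 h. Unlike the cytosolic enzymes, Fech at 48 h lay within the span of its controls, and its highest array was the second control. The smaller run gave 12.47 in the control and 12.40 and 12.41 at 9 h. Against control the change was −0.37 ± 0.14 at 4 h (95% interval −0.67 to −0.07, adjusted p = 0.230), −0.19 ± 0.10 at 9 h, −0.13 ± 0.11 at 12 h, −0.19 ± 0.11 at 15 h and 0.09 ± 0.11 at 48 h (95% interval −0.15 to 0.33). The difference between 48 h and the mean of 12 and 15 h was 0.25 ± 0.10 (adjusted p = 0.209).

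Across the pathway at 48 h against the mean of 12 and 15 h, 0 of 10 genes passed, where 0.828% of all genes did, and the lowest adjusted p among the 10 was 0.0684. At an unadjusted p under 0.05, 7 of the 10 were higher and 0 lower, against 10.9% and 7.95% of all genes. With no overlap between the arrays, 9 were higher, against 15.4% of all genes, and 1 was lower, against 12.0%. The median change of the 10 was 0.34, and that of all genes 0.02. Against 12 h alone 0 of 10 passed, where 0.276% of all genes did, and the 10 changes lay between −0.16 for Alas1 and 0.44 for Uros. Again 9 were higher and 1 lower with no overlap, against 25.6% and 19.7% of all genes. Against 15 h alone 0 of 10 passed, where 0.547% did, and the changes lay between −0.14 for Alas1 and 0.59 for Uros, with the same 9 higher (24.7% of all genes) and Alas1 lower (20.7%). The calls changed with the arrays that entered the fit. The size of each difference is the same without control replicate 1, but 5 genes (Slc25a38, Alad, Uros, Urod and Tmem14c) then passed with adjusted p from 0.0121 to 0.0359, while the share of all genes passing went to 6.34%. Without control replicate 2, 4 of these passed, all but Tmem14c, with 1.94% of all genes.

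**Figure D2:**
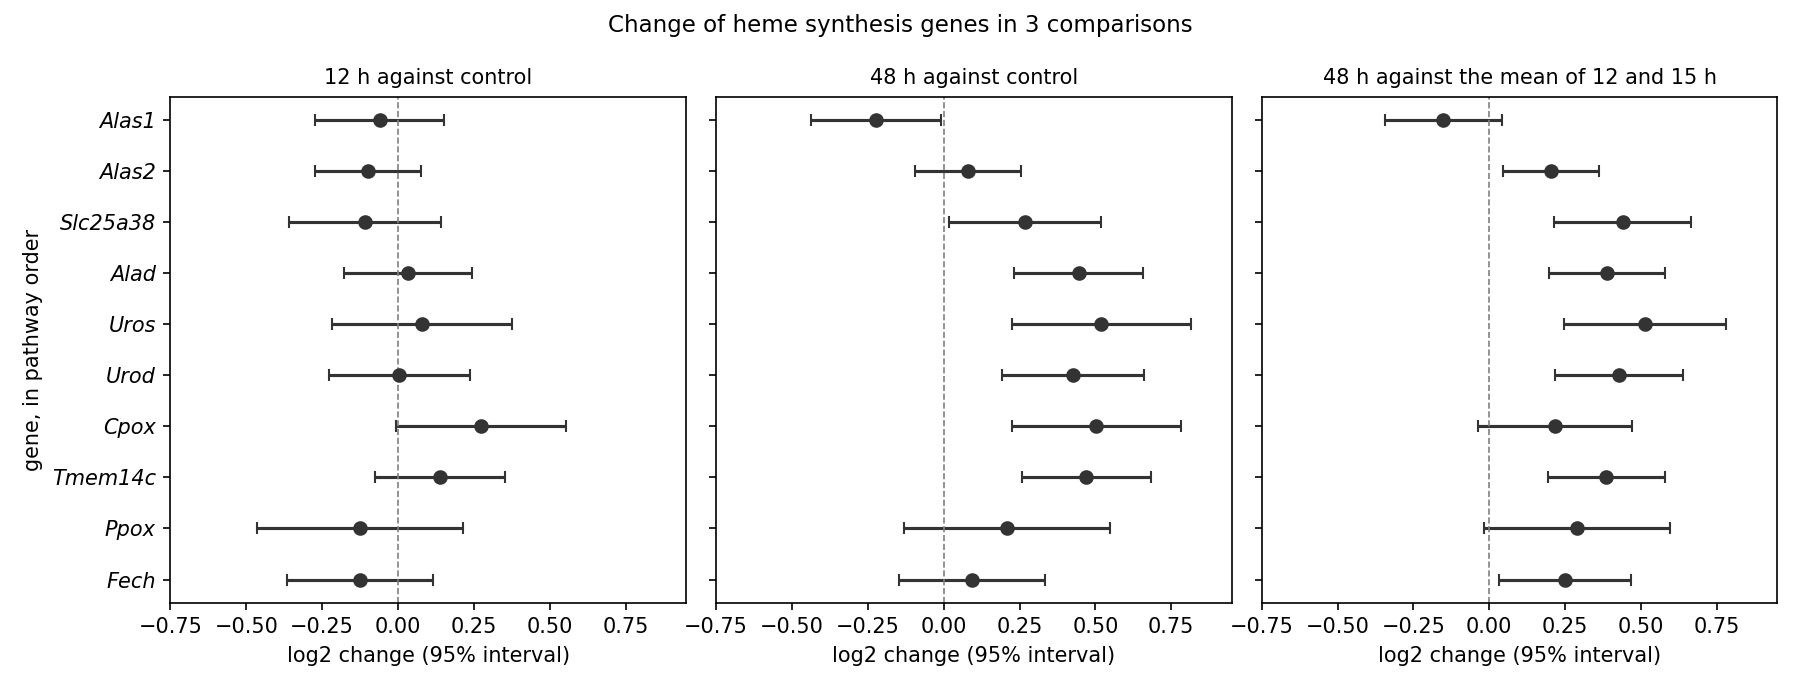
Log2 change of each gene with its 95% interval from the fit, in pathway order from top to bottom, for 12 h and 48 h against control and for 48 h against the mean of 12 and 15 h. In the right panel 7 intervals lie above 0 and those of Alas1, Cpox and Ppox cross it; none of the adjusted p-values is under the threshold.

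At 48 h against control 0 of 10 passed, where 0.376% of all genes did. Alad, Uros, Urod, Cpox and Tmem14c, 5 of 10, lay above the larger run's controls with no overlap, against 24.2% of all genes. Their changes were 0.43 to 0.52 with adjusted p from 0.0763 to 0.144. Without control replicate 1 the same changes were 0.32 to 0.47, and without control replicate 2 they were 0.53 to 0.70. The remaining higher genes, Alas2, Slc25a38, Ppox and Fech, overlapped the controls, with changes of 0.08 to 0.27, and Alas1 was below them (16.0% of all genes). The median of the 10 was 0.35, against 0.01 over all genes. Without control replicate 2 Uros passed (0.70, adjusted p = 0.0319), with 0.446% of all genes. With trend and robust moderation Tmem14c passed (adjusted p = 0.0472), with 0.672% of all genes. These comparisons share the 48 h arrays, and those against control also share the controls, so they are not separate observations.

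At 4 h the single array was the lowest group of the larger run for 7 of the 10 genes, as for 24.1% of all genes, and 9 of the 10 changes were below 0, with a median of −0.14, against 0.00 over all genes. None passed, where 1.99% of all genes did, and 5 lay below both controls, as did 35.5% of all genes, while Tmem14c lay above both, as did 35.7%. Without control replicate 1 Slc25a38 passed at −0.48 (adjusted p = 0.0498), with 6.82% of all genes. At 9 h the 10 genes had a median of −0.03 with 0 passing, where 0.0953% of all genes passed. The mean difference had the same sign in both runs for 7 of the 10, against 29% of all genes. It was below 0 in both for 6 (13.3% of all genes), with Uros (−0.0043 and −0.025) close to 0. For Cpox it was above 0 in both (15.7% of all genes), by 0.38 in the larger run and 0.24 in the smaller. Through the ties named above a difference in the smaller run can be exactly 0, which counts in none of these shares. They are therefore too low to be a like background for the 10 genes. At 12 and 15 h the medians were −0.03 and −0.05, with 0 passing where 0.105% and 0.256% of all genes passed. At 12 h Cpox and Tmem14c lay above both controls (20.1% of all genes) and no member below (20.0%). At 15 h Cpox lay above both (20.3%), and Alas2 and Fech below (19.2%).

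**Figure D3:**
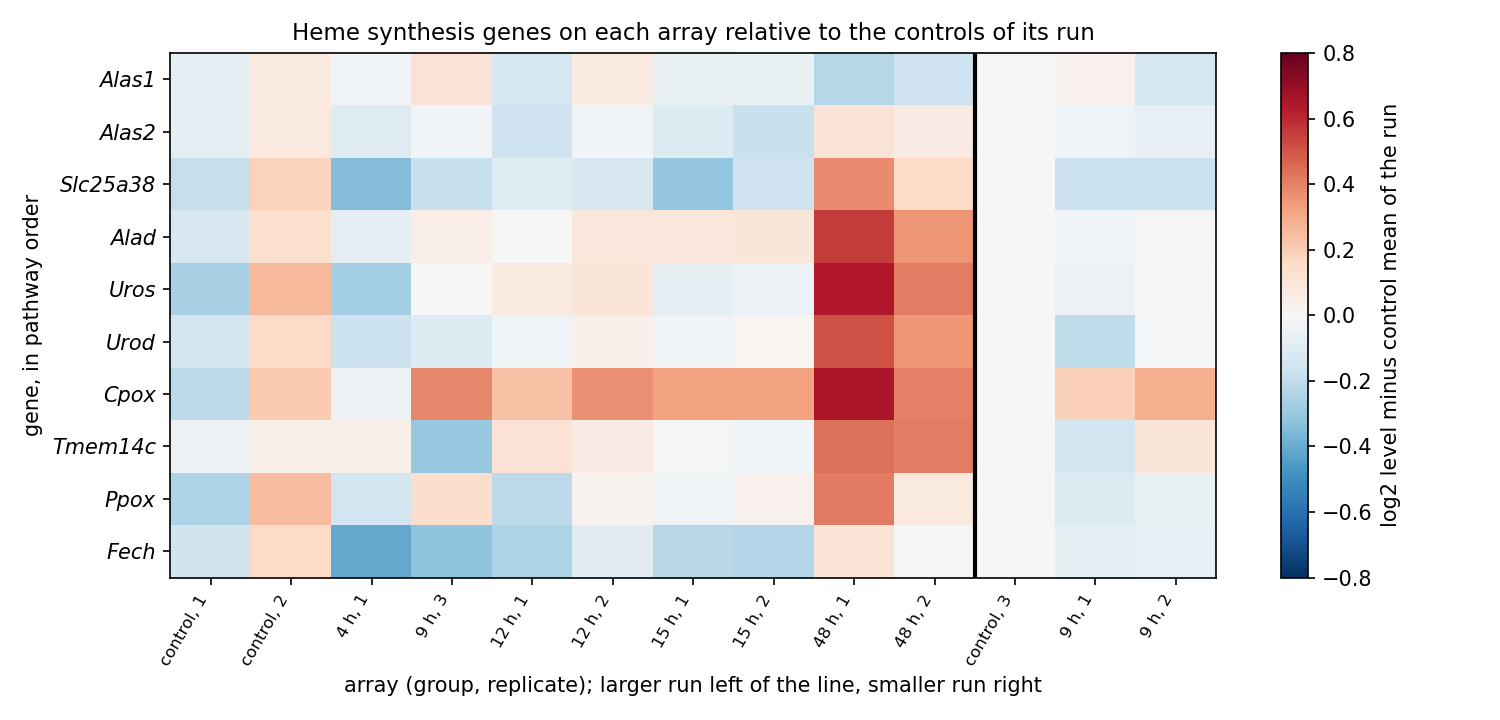
Log2 level of each gene on each of the 13 arrays minus the mean of the controls of its run. Genes are rows in pathway order, arrays are columns, and the line parts the larger run from the smaller, whose single control is 0 by construction. The 2 columns of the 48 h arrays are above 0 from Alas2 (0.10 and 0.07) to Ppox, and control replicates 1 and 2 differ in the same direction in all rows.

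The controls set the limit of these comparisons. In the larger run control replicate 2 was above control replicate 1 for 10 of the 10 genes, by 0.09 to 0.51 with a median of 0.31, while the median difference over all genes was 0.01. The 16 measured erythroid markers had the same direction in 16 of 16 with a median of 0.52. In a bulk sample fewer erythroid cells and less of a transcript in each cell cannot be told apart.

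The erythroid markers moved beside the heme genes. Of these 16 genes, among them Epor, Slc4a1, Rhd, Ermap and Hemgn, 14 lay above 12 and 15 h at 48 h with no overlap, against the same 15.4% of all genes, with a median change of 0.33, and 0 passed. Their median on each array relative to the controls was 0.38 and 0.18 on the 48 h arrays, where the heme genes had 0.43 and 0.25, and −0.38 on the 4 h array, where the heme genes had −0.13. The summed linear level of the markers was 56890 and 62985 at 48 h, 46612 to 51549 at 12 and 15 h, and 42569 and 59285 in the controls of the run. The sum over the 10 heme genes was 37006 and 41051 at 48 h, 30707 to 33224 at 12 and 15 h, and 29278 and 35473 in the controls. Tfrc, the transferrin receptor that brings iron into erythroblasts, was the 1 of 16 with a change below 0 (−0.06 ± 0.11). Against 12 and 15 h the 15 neutrophil markers had a median of −0.08 and the 11 B-lineage markers of −0.09, with 0 passing in either list. At 48 h against control their medians were −0.16 and −0.27, again with 0 passing, and Alas1 was at −0.22. Of these markers, 7 of the 15 and 7 of the 11 lay below the larger run's controls with no overlap, against 16.0% of all genes. The part of erythroid, neutrophil or B-cell number in the 48 h differences was not tested.

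Transcripts of other tissues also differed between these arrays. Of 13 liver markers 11 rose at 48 h against 12 and 15 h (median 1.53), and their summed level was 4475 and 5723 at 48 h, 715 to 826 at 12 and 15 h, and 938 and 981 in the controls. Alb, albumin, stood at 11.69 and 11.44 at 48 h and at 6.26 to 6.75 at 12 and 15 h. The liver also makes heme, and the part of liver RNA in the 48 h values was not tested. The 14 skeletal muscle markers split the 48 h arrays, with sums of 9523 and 2041 at 48 h and 2333 to 5562 at 12 and 15 h, and their part in the 48 h values was not tested. On the 4 h array 10 of 13 small intestine markers rose, with a sum of 21025 against 1362 and 1530 in the controls, the liver sum was 5241, and the muscle sum was 17330 against 4225 and 4611. The median change at 4 h was 3.89 for the small intestine list and 1.66 for the muscle list, but 0.02 for the liver list. On that array 53.8% of the liver markers lay above the control mean, and the changes at 4 h ran from −0.32 to 4.43. Few of them thus carried the liver sum, and whether it stands for liver RNA was not tested. On the 48 h arrays the liver list had medians of 1.42 and 1.06 relative to the controls. The part of these tissues in the 4 h values was not tested. The liver and intestine lists were written with earlier results of these arrays known.

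**Figure D4:**
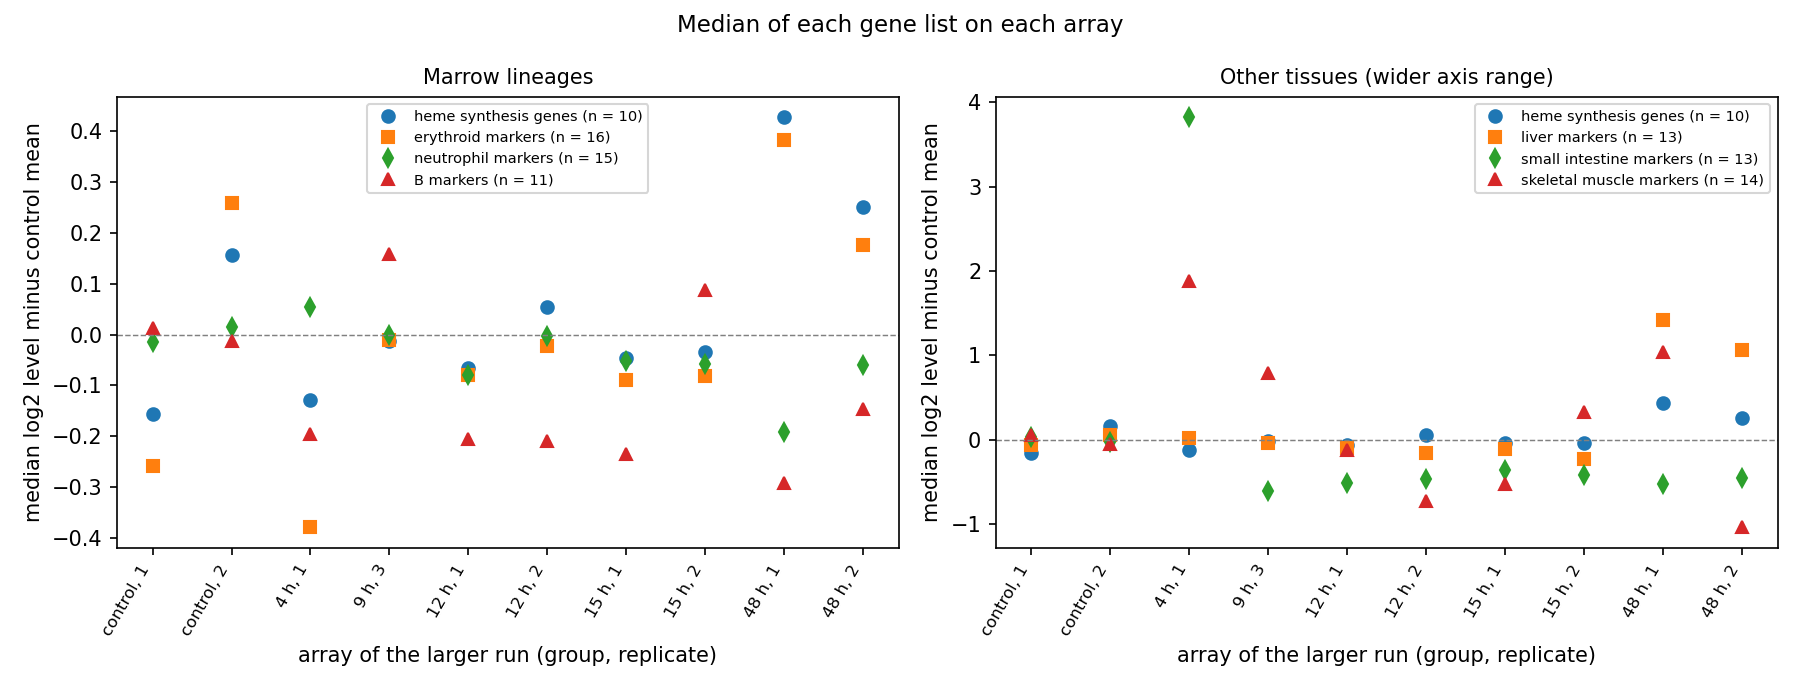
Median over the genes of each list of the log2 level minus the control mean, on each array of the larger run. Circles are the heme synthesis genes in both panels, shown with marrow lineages on the left and with other tissues on the right, where the axis is wider. The heme genes are highest on the 48 h arrays (0.43 and 0.25), where erythroid markers are at 0.38 and 0.18, and both lists part control replicate 1 from replicate 2; liver markers are high on the 48 h arrays and small intestine markers on the 4 h array.

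Genes around the pathway were counted from 4 lists. Of 18 genes of heme export, breakdown and response to heme, 1 rose at 48 h against 12 and 15 h. This was Hebp1, a cytosolic protein that binds heme and porphyrins, with levels of 9.88 and 9.87 at 48 h and 9.15 to 9.50 at 12 and 15 h (0.60 ± 0.10 or 1.51-fold, adjusted p = 0.0292). Leaving out any 1 of the 15 h or 48 h arrays, 12 h replicate 2 or 9 h replicates 1 or 2 took its adjusted p over the threshold (0.0556 to 0.248), at a change of 0.53 to 0.61. The list's median was 0.00. In the same list Nr1d1, a nuclear receptor of the clock that binds heme, fell at 9 h (−1.11 ± 0.14, adjusted p = 0.0150). Without 9 h replicate 3 it was at −0.87 (adjusted p = 0.985) and without control replicate 2 at −1.13 (adjusted p = 0.0656). The groups were taken at different hours after phlebotomy, and the part of time of day in the Nr1d1 change was not tested. Of 13 genes of glycine, succinyl-CoA and synthase turnover, 1 rose, Shmt2, the mitochondrial enzyme that makes glycine from serine. Its change was 0.51 ± 0.08 at 9 h (adjusted p = 0.0474) and 0.68 ± 0.09 or 1.61-fold at 15 h (adjusted p = 0.0109), and it was −0.10 ± 0.08 at 48 h against 12 and 15 h. The 9 h call was lost in 16 of 22 alternatives, including those that left out any 1 array other than control replicate 3 or the 4 h array. The 15 h call was lost without either 15 h array (0.66 and 0.71, adjusted p = 0.0779 and 0.128) and without control replicate 2 (adjusted p = 0.0617). In the larger run the level of Shmt2 was 9.20 and 9.35 in controls, 9.26 at 4 h, 9.90 at 9 h, 9.69 and 9.79 at 12 h, 10.02 and 9.97 at 15 h, and 9.77 and 9.78 at 48 h. Every array from 9 h on was above both controls.

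Of 16 measured genes of mitochondrial iron import and iron-sulfur clusters 0 passed in any comparison, with a median of 0.15 at 48 h against 12 and 15 h. Slc25a37, mitoferrin 1, which imports iron for ferrochelatase, was at 0.29 ± 0.10 (adjusted p = 0.170) and Abcb10, its partner in erythroid mitochondria, at 0.49 ± 0.13 (adjusted p = 0.0955). Of 10 regulators of heme genes 0 passed, with a median of 0.19. Gata1 was at 0.34 ± 0.12 (adjusted p = 0.178) and Klf1, another erythroid factor, at 0.37 ± 0.14 (adjusted p = 0.181). These 4 genes were named for their roles after their values had been seen.

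Likeness of pattern was measured by Pearson's correlation over the 10 arrays of the larger run, as a description, since the arrays share their groups and the controls' difference. The genes most like Alas2 were Cerkl (0.97), Gas2 (0.95), Iqgap3 (0.95), Amhr2 (0.94) and Clk3 (0.94). Among the other members the correlation with Alas2 ran from 0.81 for Slc25a38 and 0.79 for Fech down to 0.44 for Cpox, apart from Alas1, where it was −0.05. Among all genes these stood at ranks 420, 506, 4480 and 11516 from the highest down. The genes most like Alas1 were Ip6k3 (0.94), Lcn2 (0.93), Lexm (0.92), Tbx21 (0.92) and Gm1966 (0.91). Lcn2 is a neutrophil granule gene, the only one of these in the marker lists, and whether Alas1 follows a cell type was not tested. All 9 other members correlated with Alas1 at or below −0.01, from Ppox at −0.01 and Alas2 at −0.05 down to Tmem14c at −0.78. Among all genes Ppox, Alas2 and Tmem14c stood at ranks 9816, 10625 and 19861 from the highest down. The ranks of Ppox and Alas2 lay near the middle of all genes, so a value at or below −0.01 was common.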

How the data were processed

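The authors deposited 1 log2 level per probe set and array, made with RMA per the submitters' processing notes; its version and which arrays were normalized together are not given in the sources used here. RNA was extracted with Trizol and RNeasy columns, per the labels' protocols. From 35557 probe sets, 21789 with exactly 1 gene symbol in the platform annotation (symbols updated through the Entrez identifier for 21698) gave 19938 genes; 1621 probe sets had several symbols and 12147 were not listed. The probe set with the highest mean stood for a gene with several.

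Groups follow the time label. Replicate numbers follow sample order and pair nothing. A linear model of the 6 groups, with the run as a fixed term, was fitted with limma 3.58.1 in R 4.3.3 and moderated with eBayes (6 residual and 4.62 prior degrees of freedom). For the lone 4 h sample the spread of the remaining groups was used. Intervals are at 95% and unadjusted. The fit was tested on simulated data with changes larger than any seen for the 10 genes. That test does not show how well changes as small as theirs are recovered. The number of arrays limits the precision. Genes, lists and comparisons were chosen with earlier results of these data known. The named genes were the 10 members, list genes past the threshold (up to 4 per list and comparison, smallest p first) and the 5 genes most like Alas1 or Alas2. Outside this rule, Alb, Elane, Slc4a1, Cd79a, Tfrc, Slc25a37, Abcb10, Gata1 and Klf1 were named after their values had been seen. Figures used matplotlib 3.10.9.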

Additional observations from a re-analysis of the deposited data

How the results depend on the processing

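No paired analysis was possible because the replicate numbers follow sample order. The count of heme synthesis genes past the threshold was 0 in all 23 alternatives at 9, 12 and 15 h against control. At 48 h against the mean of 12 and 15 h it was 5 with the run as a random block (2.29% of all genes), 3 with trend and robust moderation (1.39%) and 3 when fitting just the contrasted groups (2.50%), and 0 to 5 when each array was left out in turn; the cause was not tested. At 48 h against control it was 1 with trend and robust moderation (0.672% of all genes) and 0 to 1 with an array left out. At 4 h it was 2 with array weights (9.29% of all genes) and 0 to 1 with an array left out. Against 12 h alone and 15 h alone it was 0 in the other 10 alternatives and 0 to 1 and 0 to 5 with an array left out. Without control replicate 1 the shares of all genes passing were 1.34% and 4.39%. Over all alternatives the 48 h difference from 12 and 15 h kept its sign for each of the 10 genes, from 0.40 to 0.63 for Uros and from −0.20 to −0.10 for Alas1. Against control at 48 h the signs of Alas2, Slc25a38 and Fech turned without the run term (−0.07, −0.11 and −0.14), none of them past the threshold; without that term the median over all genes was −0.24. Counts over all genes moved more: 165 genes passed at 48 h against 12 and 15 h, and 11 (no run term) to 1265 (without control replicate 1) in the alternatives. The ranges were 11 to 143 around 75 at 48 h and 78 to 1852 around 397 at 4 h against control, 3 to 75 around 19 at 9 h, 2 to 414 around 21 at 12 h, 5 to 505 around 51 at 15 h, 5 to 268 around 55 against 12 h and 8 to 875 around 109 against 15 h. At 4 h the calls split into 347 higher and 50 lower, and 297 and 94 with arrays centred on their median. The 11 liver markers that rose at 48 h were 4 to 12 in the alternatives, and the 10 intestine markers at 4 h were 4 to 10, both lowest with dim genes left out. Hebp1 kept its call at 48 h in 12 of 22 alternatives, Nr1d1 in 17 and Shmt2 at 15 h in 16.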
